A study of Homo sapiens with 8 samples.

Results

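The 8 genes described here are the caspases CASP6, CASP8 and CASP9, the caspase activator APAF1, and the inhibitors XIAP, BIRC2, BIRC3 and CFLAR. Their transcripts were measured in the human renal carcinoma cell line 786-O, which lacks functional VHL, after treatment for 6 h with pentamidine at 25 μM or with the vehicle, DMSO. All cells grew in RPMI-1640 medium with 10% fetal bovine serum and antibiotics. Affymetrix arrays of 2 types were used, each with 2 pentamidine and 2 DMSO arrays of total RNA. The members are the probe sets to which the platform annotation gives 1 of these symbols and no other: 31 of the 44792 probe sets of both types that are not controls. They represent 7 of the 8 genes, 23 probe sets on the first array type and 8 on the second. For BIRC3 the annotation used here lists no probe set, and no value is given for it. The samples are biological duplicates per the labels, which do not say whether the second array type carried the same RNA, and all come from 1 cell line.

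Caspases are cysteine proteases that carry out apoptosis, and they are made as inactive precursors. Initiator caspases are activated on platforms: CASP8 at death receptors, and CASP9 on the apoptosome, which APAF1 forms once cytochrome c leaves the mitochondria. The initiators cleave effector caspases, of which CASP6 is one that cuts nuclear lamins. XIAP binds and blocks active caspases, BIRC2 and BIRC3 are ubiquitin ligases at TNF receptor complexes, and CFLAR (FLIP) resembles CASP8 but has no protease activity and holds it back at death receptors. These regulators act largely on proteins already present, so transcript levels say little about caspase activity, which was not measured here.

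Pentamidine binds the minor groove of DNA at AT-rich sites such as AATT, so the promoters of the members are shown with this motif. RefSeq promoter windows of GRCh38.p14, each of 300 bases from 250 before to 50 after a transcript start, were searched for AATT, which reads the same on both strands. All 8 genes had at least 1 window, and AATT stood in 6 of their 17 windows (35.3%), against 45.8% of the 35116 windows in the table. Windows of a gene can overlap, as those of XIAP and BIRC2 do, so some bases are counted more than once. All 4 windows of CFLAR held it and 2 of the 3 of CASP8, while the letters were in no window of CASP6, CASP9, APAF1, XIAP, BIRC2 or BIRC3. CFLAR and CASP8 lie near each other on chromosome 2, and BIRC2 and BIRC3 on chromosome 11. The window with the lowest coordinates is shown for CFLAR, CASP8 and XIAP, chosen because CFLAR and CASP8 have matches and XIAP none. Capitals mark AATT and each window is written 5′ to 3′ on the plus strand, on which all 3 genes lie. A match is a description of the sequence, and binding was not measured.
CFLAR, chr2:201118466-201118765: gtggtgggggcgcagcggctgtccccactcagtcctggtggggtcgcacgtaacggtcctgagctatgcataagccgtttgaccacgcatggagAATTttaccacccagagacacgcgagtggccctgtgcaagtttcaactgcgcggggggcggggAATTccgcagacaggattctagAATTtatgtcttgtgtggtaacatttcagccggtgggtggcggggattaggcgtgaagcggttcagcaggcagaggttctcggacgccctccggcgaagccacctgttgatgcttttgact
CASP8, chr2:201233213-201233512: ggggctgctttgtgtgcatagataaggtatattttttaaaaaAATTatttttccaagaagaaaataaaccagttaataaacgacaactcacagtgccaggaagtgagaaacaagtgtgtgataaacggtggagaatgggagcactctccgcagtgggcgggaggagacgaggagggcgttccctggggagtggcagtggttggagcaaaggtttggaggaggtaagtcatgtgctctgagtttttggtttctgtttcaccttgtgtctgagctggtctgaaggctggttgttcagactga
XIAP, chrX:123859458-123859757: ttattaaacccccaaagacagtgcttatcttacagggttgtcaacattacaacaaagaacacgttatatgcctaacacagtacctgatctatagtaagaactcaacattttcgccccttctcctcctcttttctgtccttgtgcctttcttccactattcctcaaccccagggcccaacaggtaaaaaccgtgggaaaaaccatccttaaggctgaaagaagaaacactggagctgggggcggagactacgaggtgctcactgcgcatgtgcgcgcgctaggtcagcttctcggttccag
The CFLAR window has 3 matches and the CASP8 window 1, inside a run of 25 A or T bases, and the longest such run in the XIAP window is 8 bases.

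There were 22277 probe sets on the first array type and 22665 on the second. Over log2 intensities across probe sets, pairs of arrays correlated at 0.972 to 0.982 on the first and at 0.831 to 0.862 on the second, which is the noisier. Of 8 renal carcinoma markers, 6 lay above the median level of the tested probe sets on the first type, namely KRT8, KRT18, VIM, CDH2, CA12 and PAX8. Of the stromal markers only LUM did, and of the leukocyte, endothelial and erythroid markers none. On both array types DMSO array 1 had the highest ratio of 3′ to 5′ signal for the controls of actin, GAPDH and ISGF3A. For actin it had 1.22 and 1.47, and the next highest array 1.11 and 1.27. For GAPDH it had 0.966 and 0.843, against 0.908 and 0.806. The margin was widest for ISGF3A, at 3.80 and 4.70 against 2.84 and 2.73. On the second type both pentamidine arrays also had lower ratios than both DMSO arrays for all 3 controls. The part of RNA quality in the results below was not tested. With 2 arrays per group the number of arrays limits the precision of every value, and the smallest 2-sided exact p is 0.333, so no exact test was made.

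The first comparison asked whether pentamidine changes the transcripts of these genes, on the first array type. No member passed the test. Every probe set of XIAP, CASP9, CASP8 and BIRC2 gave more signal on both pentamidine arrays than on either DMSO array, as did 19.5% of all probe sets tested, with log2 fold changes of 0.68 and 0.87 for XIAP and from 0.09 to 0.59 for the other genes. DMSO array 1, which had the highest 3′ to 5′ ratios of the controls, was the lowest array in each of these 7 probe sets. Leaving out the lower DMSO array must lower a fold change, and leaving out the higher must raise it. Such values, given here and below, are thus no separate result. APAF1 and CFLAR had probe sets of both kinds, and the groups overlapped in both probe sets of CASP6. Fold changes are pentamidine minus DMSO on the scale log2(intensity + 16), tested by limma with Benjamini-Hochberg adjustment over all 15550 probe sets kept. Of these, 0 passed an adjusted p of 0.05 (0.00%), and 22 of the 23 member probe sets were among those tested. A probe set is called dim where its mean was under the median of the tested probe sets. Dim and bright describe the signal of a probe set, not the level of its gene. Changes are read between arrays for 1 probe set at a time.

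Among the initiators, CASP8 was measured by 2 probe sets. The brighter, 213373_s_at, gave 1441 and 1385 units in pentamidine, against 1274 and 1361 in DMSO, a log2 fold change of 0.10 (95% interval -0.31 to 0.51). The other, 207686_s_at, gave 360 and 414 units in pentamidine, against 280 and 350 in DMSO (log2 fold change 0.29, interval -0.23 to 0.81). The groups did not overlap in either, but DMSO array 1 was the lowest in both, and DMSO array 2 lay only 24.1 and 10.2 units under the nearest pentamidine array. Without DMSO array 1 the log2 fold changes were 0.05 and 0.14, and without DMSO array 2 they were 0.15 and 0.44.

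CASP9 was dim. Probe set 203984_s_at gave 166 and 177 units in pentamidine, against 130 and 156 in DMSO, a log2 fold change of 0.24 (interval -0.22 to 0.70). It was 0.12 without DMSO array 1 and 0.36 without DMSO array 2. The other CASP9 probe set, 210775_x_at, gave 133 and 135 units in pentamidine, against 69.8 and 99.2 in DMSO (log2 fold change 0.59, interval 0.03 to 1.14). Its unadjusted limma p was 0.0417 and its adjusted p 0.930. Without DMSO array 1 its log2 fold change was 0.38, and without DMSO array 2 it was 0.80. The 2 pentamidine arrays lay close together for this gene, and the spread was within DMSO.

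APAF1, the scaffold on which CASP9 is activated, was measured by 3 probe sets. The brightest, 204859_s_at, gave 342 and 328 units in pentamidine, against 281 and 299 in DMSO, with no overlap (log2 fold change 0.20, interval -0.21 to 0.61). The dim probe set 211554_s_at had 0.18, or 0.03 without DMSO array 1 and 0.33 without DMSO array 2, and its groups overlapped. The dimmest, 211553_x_at, gave 59.3 and 42.2 units in pentamidine, against 11.2 and 54.9 in DMSO. Its log2 fold change of 0.59 (interval -0.77 to 1.96) depended on the low DMSO array 1. Without that array it was -0.10, against 1.28 without DMSO array 2. It also depended on the offset, at 0.28 with an offset of 64 and 0.97 with an offset of 1.

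The effector caspase CASP6 had overlapping groups in both of its probe sets. Its probe set 209790_s_at gave 635 and 790 units in pentamidine, against 644 and 808 in DMSO, a log2 fold change of -0.03 (interval -0.59 to 0.54). Within each group replicate 2 was the higher of the pair. Probe set 211464_x_at gave 348 and 347 units in pentamidine, against 301 and 470 in DMSO (log2 fold change -0.11, interval -0.80 to 0.58).

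**Figure D1:**
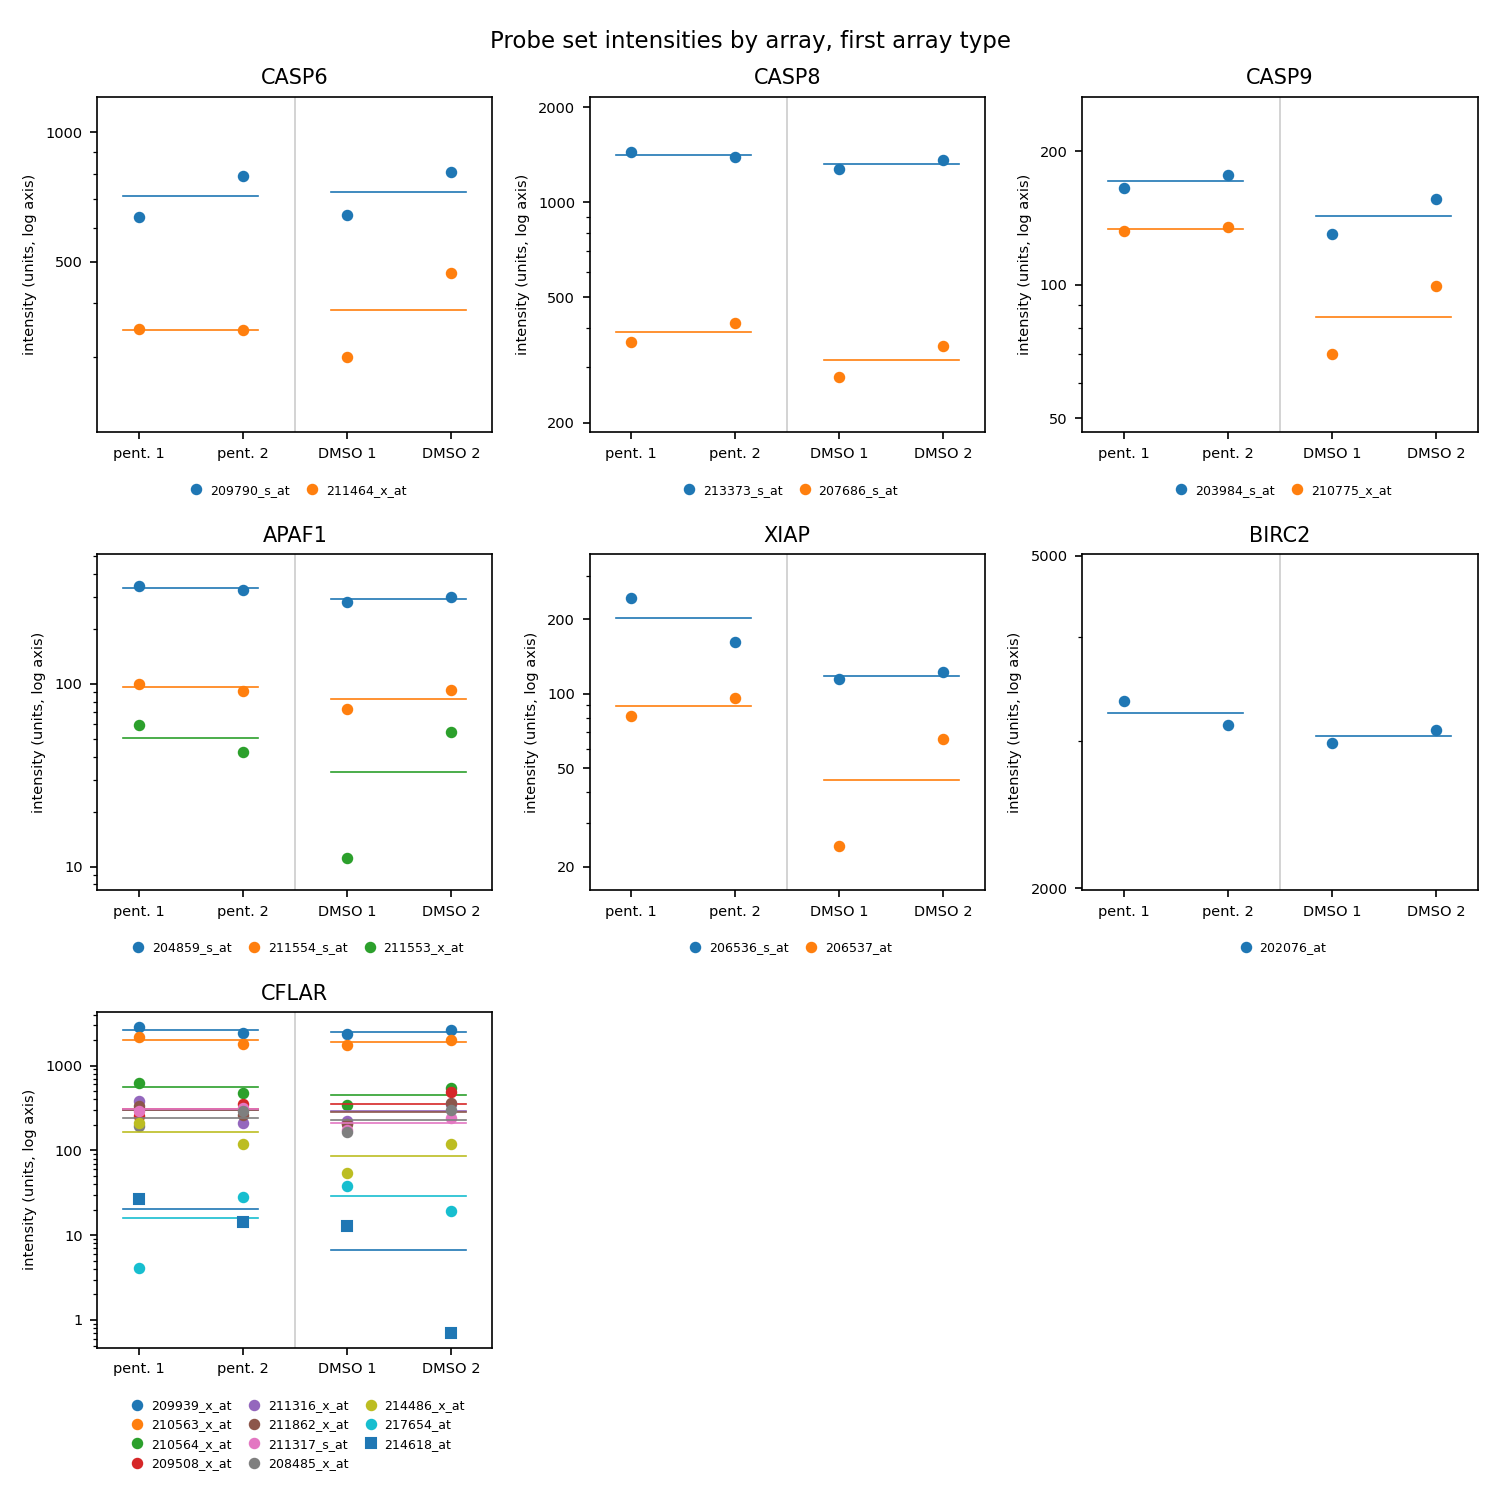
Intensity (units, log axis) of each of the 23 member probe sets on the 4 arrays of the first type, 1 panel per gene, pentamidine left of DMSO. Points are arrays and lines group means, and levels of different probe sets are not comparable. DMSO array 1 is the lowest point for most probe sets. The groups overlap in both probe sets of CASP6 and in most of those of APAF1 and CFLAR.

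The inhibitor XIAP had only dim probe sets on this array type. Its probe set 206536_s_at gave 244 and 161 units in pentamidine, against 115 and 122 in DMSO, a log2 fold change of 0.68 (interval 0.03 to 1.32) with an unadjusted limma p of 0.0438 and an adjusted p of 0.930. Here the DMSO arrays agreed and the pentamidine arrays did not, and without pentamidine array 1 the log2 fold change was 0.40. Probe set 206537_at gave 81.5 and 96.6 units in pentamidine, against 24.2 and 65.9 in DMSO (log2 fold change 0.87, interval -0.16 to 1.90). Its value was 0.36 without DMSO array 1 and 1.38 without DMSO array 2, and since the probe set is dim it also depended on the offset, at 0.51 with an offset of 64 and 1.13 with an offset of 1.

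BIRC2, a ubiquitin ligase of the TNF receptor complex, had a signal that was bright and nearly level. Its only probe set, 202076_at, gave 3347 and 3137 units in pentamidine, against 2985 and 3096 in DMSO, a log2 fold change of 0.09 (interval -0.32 to 0.50). In a limma fit whose variance follows the level, the interval was -0.16 to 0.34. The groups did not overlap, by a margin of 41.0 units.

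CFLAR, the catalytically inactive relative of CASP8, had 11 probe sets, of which 10 were tested. Of the 11, 8 end in _x_at, the Affymetrix mark for probe sets with probes that can match other transcripts. Their signal may thus not be of CFLAR alone, and probe sets read on the same arrays are not replicates of each other. The brightest, 209939_x_at, gave 2855 and 2440 units in pentamidine, against 2387 and 2629 in DMSO (log2 fold change 0.07, interval -0.39 to 0.54). The next, 210563_x_at, gave 2157 and 1817 units in pentamidine, against 1753 and 2004 in DMSO (log2 fold change 0.08). Both had the same order of arrays, with pentamidine array 1 highest and DMSO array 1 lowest, and both lay below 0 after median centring, at -0.022 and -0.019, where the median of all tested probe sets was -0.07.

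The dimmer CFLAR probe sets spread more widely. Probe set 211317_s_at gave 291 and 319 units in pentamidine, against 175 and 243 in DMSO, with no overlap (log2 fold change 0.53, interval -0.05 to 1.105, limma unadjusted p = 0.0643). Its fold change was 0.31 without DMSO array 1 and 0.75 without DMSO array 2. The other tested CFLAR probe sets, whose groups all overlapped, had log2 fold changes from -0.56 for the dim 217654_at to 0.84 for the dim 214486_x_at. Probe set 214486_x_at gave 209 and 120 units in pentamidine, against 53.4 and 120 in DMSO, so that pentamidine array 2 and DMSO array 2 were level. Its log2 fold change was 0.36 without DMSO array 1 and 1.33 without DMSO array 2. It was 0.48 without pentamidine array 1 and 1.21 without pentamidine array 2. Under the filter lay 214618_at, with 26.6 and 14.4 units in pentamidine, against 12.7 and 0.706 in DMSO. For CFLAR as a whole, 8 of 10 tested probe sets lay above DMSO and the median was 0.09 on the log2 scale, and 8 of the 10 changed sides when an array was left out, 3 of them also after median centring.

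**Figure D2:**
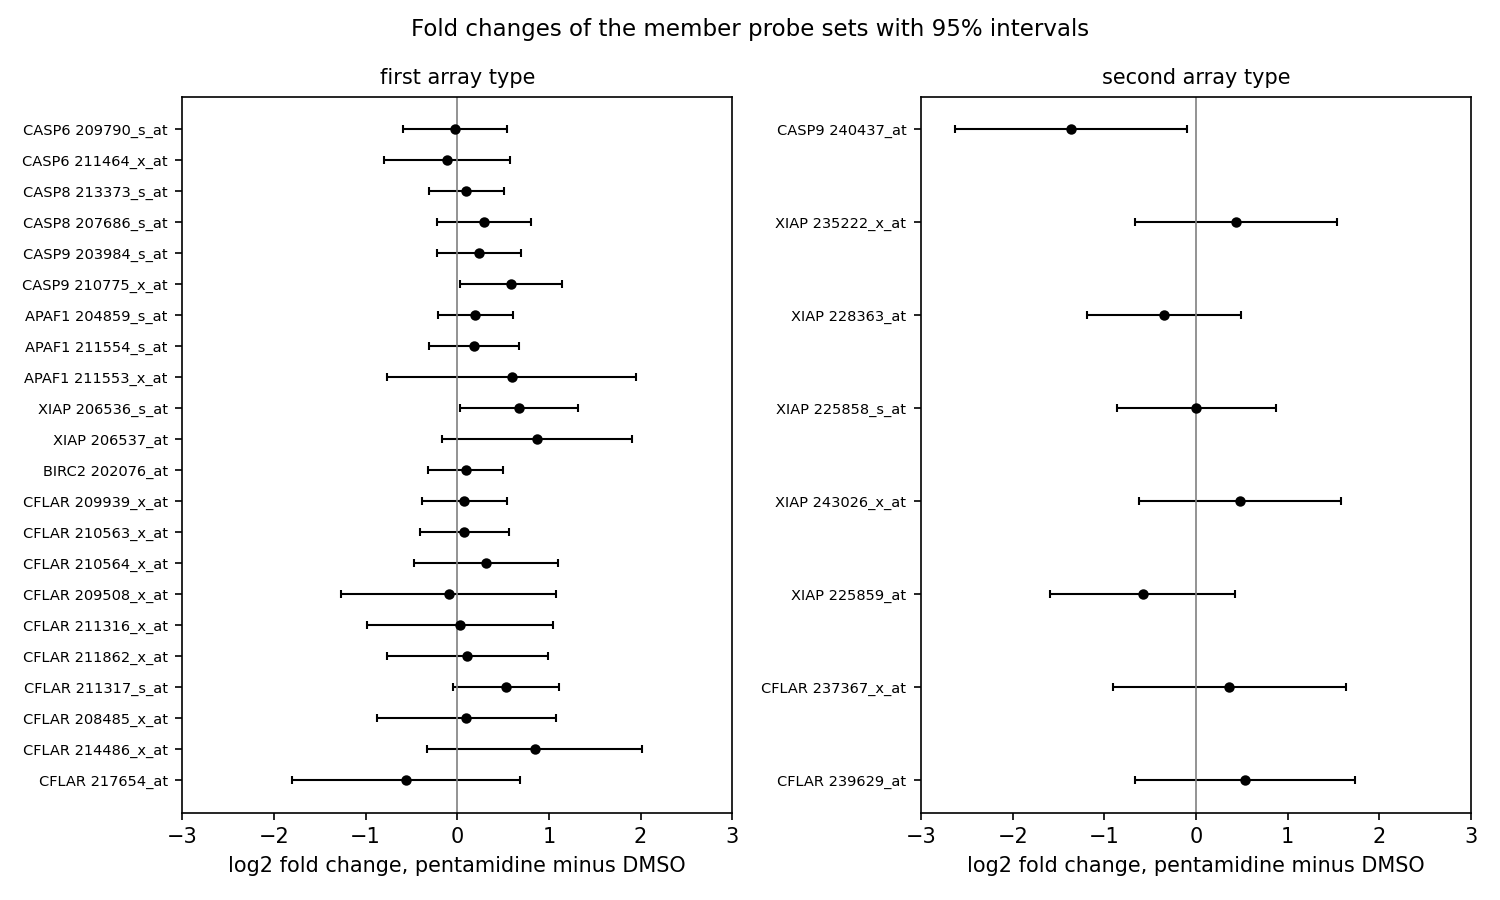
Log2 fold change (pentamidine minus DMSO) of the 30 tested member probe sets with the 95% interval of limma, first array type left and second right. On the first type 2 intervals lie above 0, for CASP9 210775_x_at and XIAP 206536_s_at, and on the second 1 lies below 0, for CASP9 240437_at, and none of these passed after adjustment.

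Over the 22 tested member probe sets of the first type, 18 lay above DMSO, against 54.2% of all 15550. The count was again 18 after quantile normalization, against 49.1% of all, and 14 after median centring, against 38.8% of all. Their median log2 fold change was 0.14, against 0.03 over all. Both pentamidine arrays exceeded both DMSO arrays in 9 of the 22, and 0 had the reverse, where all tested probe sets gave 19.5% and 15.6%. Unadjusted limma p values under 0.05 came from 2 of the 22, against 4.84% of all tested, and from 4 against 5.17% when the variance followed the level. Intervals that excluded any change of 2-fold or more were found for 11 of the 22, against 70.9% of all tested, and for 15 once the variance followed the level, against 70.3%. Since CFLAR alone supplied 10 probe sets, these counts weigh it most.

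The size of this lean depended on the array left out. DMSO array 1 was the lowest of the 4 arrays for 19 of the 22 member probe sets, against 31.0% of all tested, and DMSO array 2 for 0. Without DMSO array 1, 12 of the 22 lay above DMSO and the median log2 fold change was 0.02, against 51.8% and 0.01 over all. Leaving out the array that was lowest for most members must lower their fold changes, so that fall is no separate result. Without DMSO array 2, 21 lay above and the median was 0.40, against 52.2% and 0.02 over all. Without either pentamidine array 17 lay above. DMSO array 1 also had the highest 3′ to 5′ ratios of the RNA quality controls, and the part of RNA quality in this lean was not tested.

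**Figure D3:**
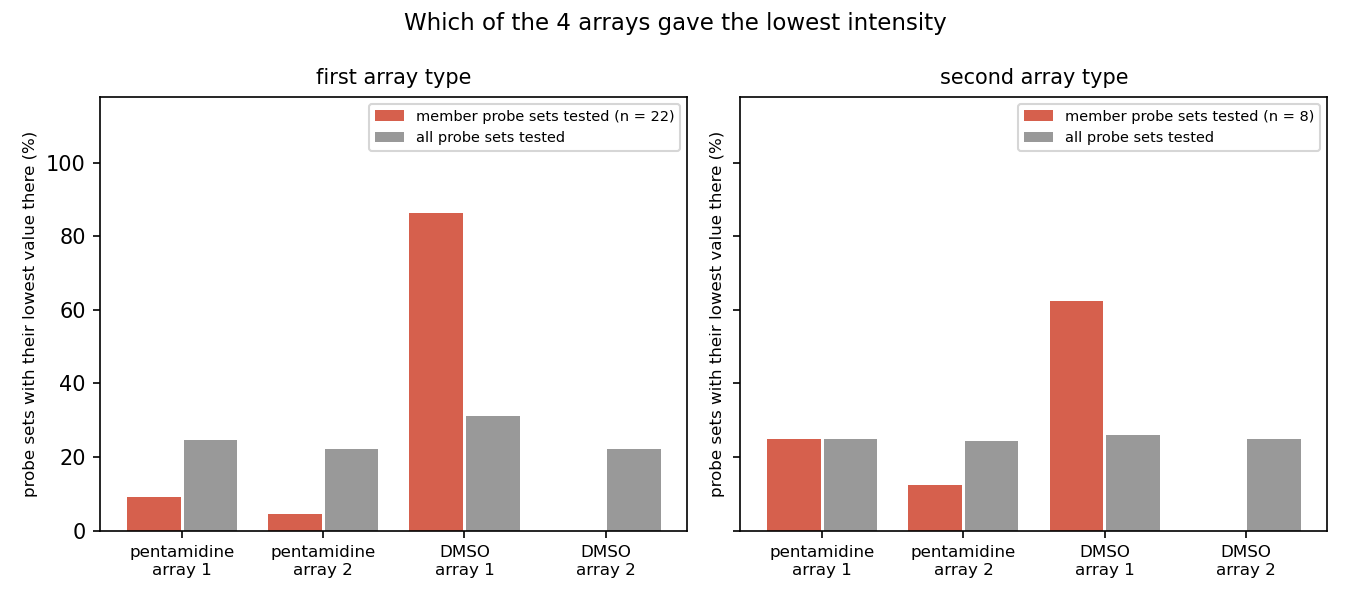
Share of probe sets (%) that had their lowest intensity on each array, for the tested members (22 on the first type, 8 on the second) and for all tested probe sets. DMSO array 1 was the lowest for 86.4% of the members of the first type and 62.5% of those of the second, against 31.0% and 25.9% of all.

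The second array type, which has other probe sets for XIAP, CFLAR and CASP9, was compared in the same way. Again no member passed. The 5 XIAP probe sets here were bright and did not share a direction: 2 were lower in both pentamidine arrays, 1 was level and 2 leaned above DMSO. CASP9 was lower in both pentamidine arrays on a dim probe set, opposite to both of its probe sets on the first type. That dim probe set passed the filter only through its DMSO values. Of the 15804 probe sets tested by limma, 0 passed (0.00%) and 7.01% had an unadjusted p under 0.05. Of the members 1 of 8 had such a p.

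For XIAP, probe set 228363_at gave 3675 and 3399 units in pentamidine, against 4527 and 4485 in DMSO, a log2 fold change of -0.35 (interval -1.19 to 0.49). Probe set 225859_at gave 834 and 1011 units in pentamidine, against 1179 and 1620 in DMSO (log2 fold change -0.58, interval -1.59 to 0.42). In both of these the groups did not overlap. The probe set 225858_s_at, built from the same source sequence as 225859_at per the annotation, gave 2609 and 2505 units in pentamidine, against 2355 and 2757 in DMSO. Its log2 fold change was 0.00 (interval -0.86 to 0.87), with the pentamidine arrays between the DMSO arrays.

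The other XIAP probe sets both end in _x_at. Probe set 235222_x_at gave 5677 and 4136 units in pentamidine, against 3000 and 4248 in DMSO (log2 fold change 0.44, interval -0.66 to 1.54). Probe set 243026_x_at gave 2979 and 2782 units in pentamidine, against 1632 and 2606 in DMSO (log2 fold change 0.48, interval -0.62 to 1.58). DMSO array 1 was the lowest array in both, and without it their log2 fold changes were 0.19 and 0.14. Without DMSO array 2 they were 0.69 and 0.81. The probe sets 228363_at and 225859_at had -0.34 and -0.81 without DMSO array 1, and -0.36 and -0.36 without DMSO array 2.

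When the variance followed the level in limma, the intervals of these bright XIAP probe sets were narrower and 4 of the 5 left out 0, on both sides. They ran from -0.68 to -0.02 for 228363_at, from -1.12 to -0.05 for 225859_at, from 0.08 to 0.80 for 235222_x_at and from 0.06 to 0.89 for 243026_x_at. None passed, each with an adjusted limma p of 0.902. In that fit 4 of the 8 members, all XIAP, had an unadjusted p under 0.05, against 4.95% of all tested, and 0.0127% of all tested passed after adjustment. Together with the first type, 5 of 7 XIAP probe sets lay above DMSO, 1 of them at 0.00, and 2 below, so the direction for XIAP depended on the probe set.

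CASP9 was measured by 240437_at, which gave 35.5 and 74.2 units in pentamidine, against 185 and 137 in DMSO. The groups did not overlap, and both pentamidine arrays were lower than either DMSO array by 63.0 units or more. Its log2 fold change was -1.36 (interval -2.63 to -0.09), with an unadjusted limma p of 0.0411 and an adjusted p of 0.657. Both pentamidine values lay under the filter cut of 76.8 units, so this probe set was tested only because its DMSO values were higher. With a variance trend the interval was -3.68 to 0.95, with an offset of 64 the value was -0.93, and the probe set did not pass a 50th percentile filter. Leaving out 1 array gave values from -1.77 to -0.96.

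CFLAR had 2 probe sets on this type. Probe set 239629_at gave 575 and 323 units in pentamidine, against 282 and 304 in DMSO (log2 fold change 0.54, interval -0.66 to 1.735). Without pentamidine array 1 its value was 0.14. Probe set 237367_x_at gave 322 and 566 units in pentamidine, against 279 and 385 in DMSO (log2 fold change 0.37, interval -0.91 to 1.64). The 2 probe sets thus placed different pentamidine arrays on top, and only 239629_at had groups that did not overlap.

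**Figure D4:**
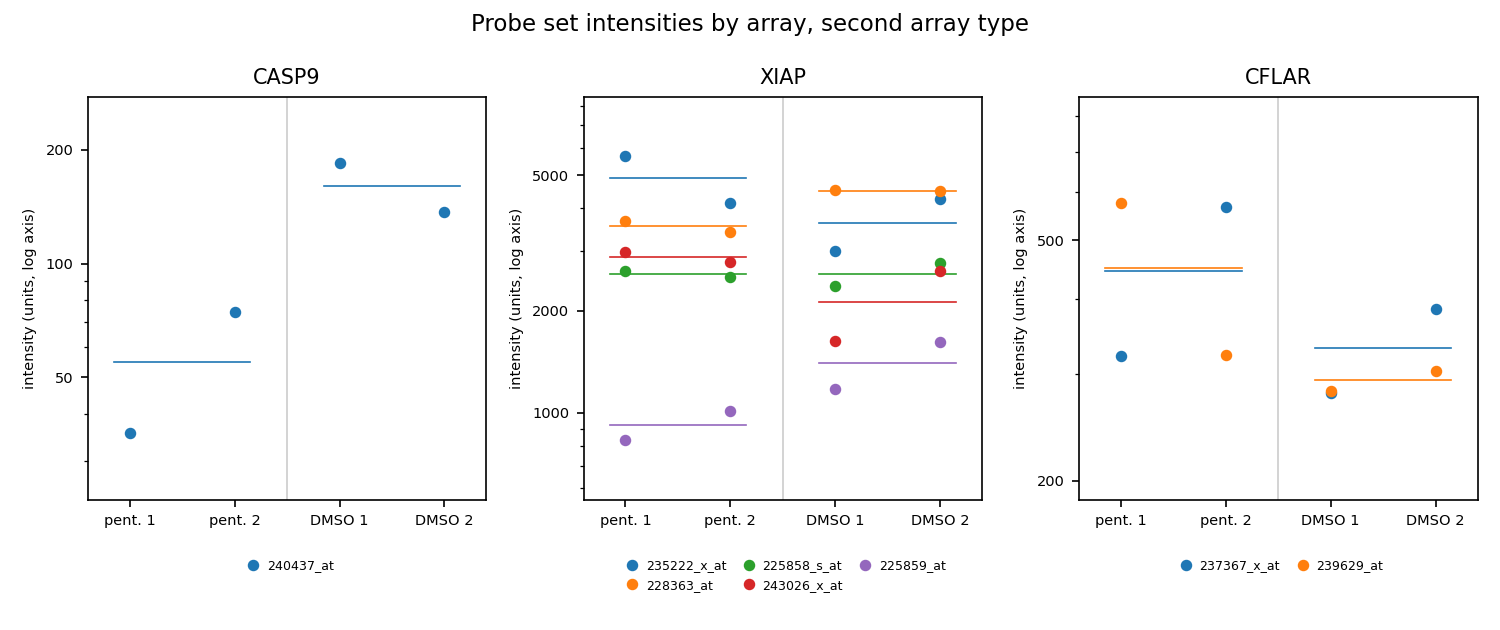
Intensity (units, log axis) of the 8 member probe sets on the 4 arrays of the second type, 1 panel per gene, pentamidine left of DMSO. Points are arrays and lines group means. CASP9 240437_at lies lower in pentamidine, and the XIAP probe sets differ in direction.

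Over the 8 member probe sets of the second type, 5 lay above DMSO and 3 below, against 51.8% above over all tested. After median centring 4 lay above and 4 below, against 43.4% above over all. Their median log2 fold change was 0.19, against 0.02 over all. Both pentamidine arrays were above both DMSO arrays in 2 of the 8 and below in 3, where all tested probe sets gave 17.7% and 16.5%. Intervals excluded any change of 2-fold or more for 1 of the 8, against 8.16% of all tested, and for 4 once the variance followed the level, against 27.4%. DMSO array 1 was the lowest for 5 of the 8, against 25.9% of all. Without it 4 lay above DMSO with a median of 0.02, against 50.1% and 0.00 over all. As on the first type, that fall is no separate result. Without DMSO array 2, 5 lay above with a median of 0.35, against 48.1% and -0.03 over all. Without either pentamidine array 4 lay above.

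Other genes of the pathway were taken from a list of 34 caspases, IAP proteins, death receptor adaptors, mitochondrial factors and caspase substrates, each by its brightest tested probe set. On the first type 26 genes were tested by limma and 0 passed in either direction. Above DMSO lay 14 and below it 12, and their median log2 fold change was 0.00. The gene with the largest moderated t was TRAF1, an adaptor that binds BIRC2 and BIRC3 with its partner TRAF2. It gave 37.3 and 47.6 units in pentamidine, against 82.7 and 84.0 in DMSO, a log2 fold change of -0.77 (interval -1.23 to -0.31).

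Next by that measure came the ligand TNF, at -0.93, its receptor TNFRSF1A, at 0.37, and TRADD, the adaptor that this receptor recruits, at -0.39. The limma adjusted p of each of the 4 was 0.930. Their groups did not overlap, which the choice by moderated t favours, and over the list the groups did not overlap in 10 of 26 genes, against 35.1% of all tested probe sets. TRAF1, TNF and TRADD were dim and lower in pentamidine, while TNFRSF1A was bright and higher, at 793 and 682 units in pentamidine, against 579 and 553 in DMSO. The ligand, its receptor and the adaptors thus did not share a direction. CASP10, an initiator caspase related to CASP8, had 0.85 (interval -0.23 to 1.92), CYCS, cytochrome c, 0.01, and DIABLO, the mitochondrial protein that relieves inhibition by XIAP, 0.07. These last 3 were chosen after their values were seen.

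On the second type 6 listed genes were tested by limma and 0 passed, while 4 were above DMSO and 2 below (median 0.04). The 4 largest by moderated t were CYCS at 0.74, DFFA, the inhibitor of the apoptotic nuclease, at 0.27, BIRC6, a giant IAP protein, at -0.19, and TRAF1 at -0.36. The CYCS value came from 581 and 429 units in pentamidine, against 619 and 133 in DMSO, with DMSO array 2 far below the other arrays. BIRC6 alone of the 6 genes had groups that did not overlap, against 34.2% of all tested probe sets. It gave 3201 and 3445 units in pentamidine, against 3505 and 4103 in DMSO (interval -1.06 to 0.68). TRAF1 lay below DMSO on both array types, by different probe sets, here with an interval of -2.53 to 1.82.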

How the data were processed

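The authors deposited linear probe set intensities of 8 arrays. Per the submitters' processing notes the tool was Affymetrix Expression Console, with settings not given in the sources used here. Members were the probe sets whose platform annotation gives 1 symbol, updated by gene ID to RefSeq for GRCh38.p14. Controls (62 and 88 probe sets) were left out. Probe sets with a mean intensity under the 30th percentile were not tested. The contrast of pentamidine with DMSO was fitted on log2(intensity + 16) separately for the 2 array types (limma 3.58.1, R 4.3.3, functions lmFit and eBayes), without a block. P-values were adjusted over all tested probe sets by Benjamini-Hochberg, with a threshold of 0.05. Named were all member probe sets and, from the pathway list, the 4 genes per array type with the largest absolute moderated t. The members, lists and tests were chosen with earlier results of these data known. P-values rest on the spread between 2 arrays per group, which limma moderates towards the spread of all tested probe sets. Alternatives were quantile normalization, median centring, offsets of 1 and 64, no filter, a 50th percentile filter, a variance trend, a replicate block and leaving out each array.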

Additional observations from a re-analysis of the deposited data

Results flagged for a closer look

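A control probe set that no comparison used was higher in both pentamidine arrays on each array type. It was picked by a search of the controls for those above DMSO without overlap and by at least 2-fold on both types. It was the only control to meet that rule, and controls below DMSO were not searched. For the HUMRGE control, the probe set at the 3′ end gave 511 and 695 units in pentamidine, against 138 and 282 in DMSO, on the first type (2.87-fold), and 3035 and 2876 units, against 745 and 1526, on the second (2.60-fold). DMSO array 1 was the lowest there, as it was for most caspase and inhibitor probe sets, and the part of this signal in their values was not tested.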

How the results depend on the processing

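In each of the 9 kinds of alternative run, 0 member probe sets passed limma on either array type. Over all probe sets 0 passed too, except 2 of the second type with a variance trend, neither a member. With the replicate block, which the labels do not explain, 0 passed on each type, and the fold changes were those without it. Same-numbered arrays shared no deviation (r = 0.0049 and 0.014 across probe sets). Of the 240 member fold changes recomputed under settings that can move them (another scaling or offset, or an array left out), 25 changed sign, in 14 of 30 probe sets. The cause was not tested, apart from median centring, which moved all probe sets by -0.10 and -0.11. It took BIRC2 202076_at to -0.0055, CFLAR 209939_x_at to -0.022, 210563_x_at to -0.019 and 211316_x_at to -0.070, and XIAP 225858_s_at to -0.11. Leaving out each array gave -0.19 to 0.14 for CASP6 209790_s_at and -0.42 to 0.20 for 211464_x_at, -0.10 to 1.28 for APAF1 211553_x_at, and -0.11 to 0.12 for XIAP 225858_s_at. For CFLAR it gave -0.038 to 0.19 for 209939_x_at, -0.045 to 0.20 for 210563_x_at, -0.0072 to 0.64 for 210564_x_at, -0.66 to 0.47 for 209508_x_at, -0.38 to 0.43 for 211316_x_at, -0.29 to 0.50 for 211862_x_at, -0.30 to 0.49 for 208485_x_at, -1.13 to 0.0078 for 217654_at and -0.027 to 0.76 for 237367_x_at. An offset of 1 or 64 moved 3 fold changes by over 1.5 times, all of dim probe sets: APAF1 211553_x_at, XIAP 206537_at and CFLAR 217654_at, the last at -1.22 with an offset of 1 and -0.22 with an offset of 64.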
